A study of Mus musculus with 6 samples.

Results

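Alternative splicing was compared between Raver2-depleted and control mouse medullary thymic epithelial cells (mTECs), using 4 of the 6 libraries of the series. Raver2 knockdown was represented by 2 libraries, each made with its own short hairpin RNA (sh1 and sh2), and the control group (Ctr) by 2 libraries that carried a hairpin against LacZ, a bacterial gene that mouse cells lack. A further 2 libraries carried hairpins against Setd2, which encodes a histone methyltransferase, and serve here as a second knockdown to set beside the first. All cells were primary mTECs, obtained as CD45- EpCAM+ Ly51- I-A/E+ cells, laid on a fibrin gel that held human dermal fibroblasts and infected there with a lentivirus encoding the hairpin and eGFP. After 5 days the viable, infected cells were sorted by MHC class II (I-A/E) and GFP, and their total RNA was amplified and sequenced. The labels give no strain, age or number of animals and do not say whether the pair of libraries in a group had separate animals or cultures behind it, so the p-values below reflect only how these particular libraries vary, and that variation may be technical.

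The quantity deposited for each library was how often an alternative splicing event was included, its inclusion frequency, which runs as a fraction from 0 (never) to 1 (always). Events carried a gene symbol and no position, so an event is known here by its gene and its rank among that gene's events, which served to match libraries and gives the event its number. Of 2895 genes listed in any of the 4 libraries, 2743 were listed in all of them with the same number of events. They held 4767 events, which are all the events analysed here. The other 152 genes were not compared, since 151 were missing from at least 1 library and 1 had unequal numbers of events. Among the genes compared, 1710 had 1 event and 1033 had more, up to 15.

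Raver2 is an RNA-binding protein of the nucleus and, like its relative Raver1, a partner of PTB, the product of Ptbp1. PTB binds pyrimidine-rich stretches beside exons and generally represses their inclusion, and raver proteins can act with it as co-repressors. mTECs present the thymus with self-antigens of many tissues, a task in which the transcription regulator Aire takes a central part. The splice forms that they make therefore bear on which protein segments developing T cells meet. The comparison asked which splicing choices of mTECs depend on Raver2.

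The knockdown itself could not be checked from these values. Raver2 (chromosome 4, 101068983 to 101152370, plus strand, mm10, GENCODE M21) had no listed event in any library, and inclusion frequencies carry no expression level. Raver1, Ptbp2 and Ptbp3 had no event among those compared. Among 10 marker genes per cell type, those with a listed event numbered 2 for thymic epithelium (Aire and Cd74), 1 for fibroblasts (Postn) and 4 for leukocytes (Cd247, Cd8a, Lck and Ptprc). Their levels are not measured here, so the cell type could be checked no further than the listing of Aire and Cd74 events, and the part of other cells in the results was not tested. Each library listed 4877 to 4949 events. How many reads stand behind a fraction is unknown, and 2504 of the 4767 events (52.5%) lay within 0.01 of 0 or of 1 in at least 1 library. The other 2263, with every fraction between these limits, are called mid-range events below.

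Under Raver2 knockdown, 36 events rose and 56 fell in 76 genes, out of 4767 tested (limma, Benjamini-Hochberg adjusted p under 0.05). That is 1.93% of all events, 0.755% higher and 1.17% lower. The events that passed were mostly large or complete changes: in 41 the group means differed by more than 0.9, in 38 by 0.1 to 0.9 and in 13 by less than 0.1. In 19 events inclusion was below 0.01 in both Raver2 libraries and above 0.99 in both Ctr libraries, and in 9 the reverse held. The 76 genes included some of matrix and adhesion (Fn1, Postn, Serpinh1, Bmp1, Adam33), some of lineage control (Sox17, Ebf3, Prrx1) and Aire itself. Of those named here, only Adam33 was among the complete switches.

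These counts rested on few libraries and mostly on fractions near 0 or 1. Such a fraction, within 0.01 of either end, occurred in 84 of the 92 events (91.3%), set against 52.5% of all events tested. All adjusted p-values that passed lay between 0.0354 and 0.0498, and 635 events had an unadjusted p under 0.05. With the 2263 mid-range events fitted alone, limma called 0 (0%), with 323 at an unadjusted p under 0.05 and a smallest adjusted p of 0.110. Leaving out the sh1 library gave 84 events, 65 higher and 19 lower, of which 9 were among the 92. Without the sh2 library limma called 0, with 730 at an unadjusted p under 0.05. The count was 402 without Ctr library 1 and 376 without Ctr library 2.

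**Figure D1:**
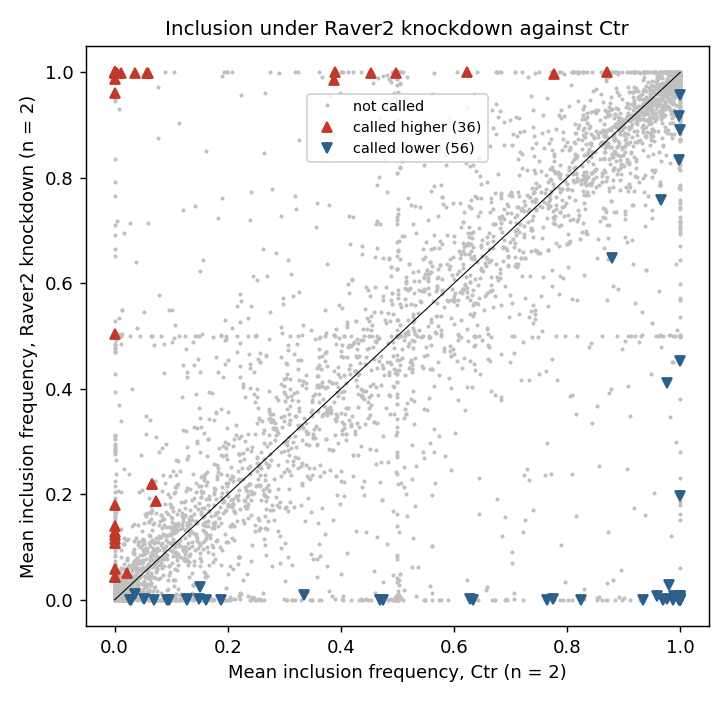
Mean inclusion frequency (a fraction) of each of the 4767 events under Raver2 knockdown (vertical axis) and in Ctr (horizontal axis), each a mean of 2 libraries; grey points did not pass, red points are the 36 events that rose and blue points the 56 that fell (limma, adjusted p under 0.05). Most coloured points lie along the edges, where the mean of a group is near 0 or 1.

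In 8 of the 92 events every fraction was between 0.01 and 0.99, so that both groups showed partial inclusion. The largest gain among them was in Bmp1 (chromosome 14, 70474558 to 70520234, minus strand), a protease that matures procollagen and frees growth factors from the matrix. Its event 1 had fractions of 0.218 and 0.222 in the Raver2 libraries, against 0.0612 and 0.0699 in the Ctr libraries. Both hairpins lay well above both controls, with a difference of 0.154 ± 0.00736 (SE; limma adjusted p = 0.0373). Event 2 of Bmp1 held identical values in all 4 libraries and is the same measurement listed again. Nipa2 (chromosome 7, 55931287 to 55962476, minus strand), a magnesium transporter, had fractions of 0.189 and 0.185 in Raver2 libraries at event 3, against 0.0754 and 0.0727 in Ctr libraries. The groups did not overlap, and inclusion rose by 0.113 ± 0.00553 (SE; limma adjusted p = 0.0373). Fam110a had a smaller gain, with 0.0512 and 0.0516 in Raver2 libraries against 0.0229 and 0.0209 in Ctr libraries, a difference of 0.0295 ± 0.00136 (SE; limma adjusted p = 0.0366). These calls depended on the scale: on the arcsine scale Bmp1, Nipa2 and Fam110a no longer passed (limma adjusted p = 0.0936, 0.121 and 0.0870 in that order), nor did Bmp1 and Nipa2 on the logit scale (limma adjusted p = 0.0850 and 0.102). Fam110a was also lost without a variance trend (limma adjusted p = 0.128).

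The mid-range events that fell belonged to a chemokine, a guidance receptor ligand, a nucleic acid-binding protein and a phosphodiesterase. Cxcl12 (chromosome 6, 117168535 to 117181367, plus strand) encodes the chemokine that draws CXCR4-bearing progenitors, and its event 1 had fractions of 0.750 and 0.766 in Raver2 libraries, against 0.963 and 0.968 in Ctr libraries. Both hairpins were lower than both controls, and the difference was -0.208 ± 0.00909 (SE; limma adjusted p = 0.0354). Sema6d (chromosome 2, 124089969 to 124667770, plus strand), a transmembrane semaphorin that signals to plexins, had 0.647 and 0.649 in Raver2 libraries at event 3, against 0.888 and 0.870 in Ctr libraries. The hairpins were nearly equal there and the difference was -0.231 ± 0.0139 (SE; limma adjusted p = 0.0480). Lrrfip1 (chromosome 1, 90998737 to 91128944, plus strand), which binds nucleic acids and takes part in innate sensing, had 0.0251 and 0.0237 in Raver2 libraries at event 1, against 0.158 and 0.145 in Ctr libraries. Inclusion there fell by 0.127, with an SE of 0.00647 (limma adjusted p = 0.0394). Event 2 of Pde2a, a phosphodiesterase of cyclic nucleotides, had 0.0109 and 0.0101 in Raver2 libraries against 0.0352 and 0.0374 in Ctr libraries, a difference of -0.0258 ± 0.00129 (SE; limma adjusted p = 0.0381). Sema6d no longer passed on the arcsine and logit scales (limma adjusted p = 0.0784 and 0.0685), and Lrrfip1 and Pde2a no longer passed without a variance trend (limma adjusted p = 0.0529 and 0.152). In all, the alternatives under which the call held were 3 of 10 for Bmp1 event 1, 2 of 10 each for Nipa2 and Sema6d, 5 of 11 each for Fam110a and Cxcl12, 5 of 10 for Pde2a and 7 of 11 for Lrrfip1.

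Aire (chromosome 10, 78030022 to 78043610, minus strand) had 9 events, of which 2 rose and 1 fell. Event 1 was included at 0.108 and 0.122 in Raver2 libraries and below 0.01 in both Ctr libraries (difference 0.115 ± 0.00631, SE; limma adjusted p = 0.0427). Event 2 was included at 0.190 and 0.168 in Raver2 libraries and below 0.01 in both Ctr libraries (difference 0.179 ± 0.00948, SE; limma adjusted p = 0.0417). Event 3 moved the other way, at 0.892 and 0.890 in Raver2 libraries against above 0.99 in both Ctr libraries (difference -0.109 ± 0.00296, SE; limma adjusted p = 0.0354). Events 1 and 3 were complements within 0.05 in every library, so they may record a single choice between alternatives. Event 8 was lower as well, at 0.887 and 0.860 in Raver2 libraries and above 0.99 in both Ctr libraries, but it did not pass (limma adjusted p = 0.0903). Events 4 and 9 were the same measurement listed in different places, and the hairpins disagreed there, with above 0.99 in sh1 and 0.885 in sh2. At event 7 the libraries of each group took opposite ends of the scale, sh1 and Ctr library 2 being below 0.01, and sh2 and Ctr library 1 above 0.99. Events 1 and 2 of Aire also passed without the sh1 library, as did 7 others of the 92, and event 3 did not. Without a variance trend event 3 passed (limma adjusted p = 0.0197) and events 1 and 2 did not (limma adjusted p = 0.0637 and 0.0542). The calls of events 1 and 2 held under 5 of 9 alternatives each and that of event 3 under 7 of 9. Events 5 and 6 had group means that differed by 0.00502 or less.

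**Figure D2:**
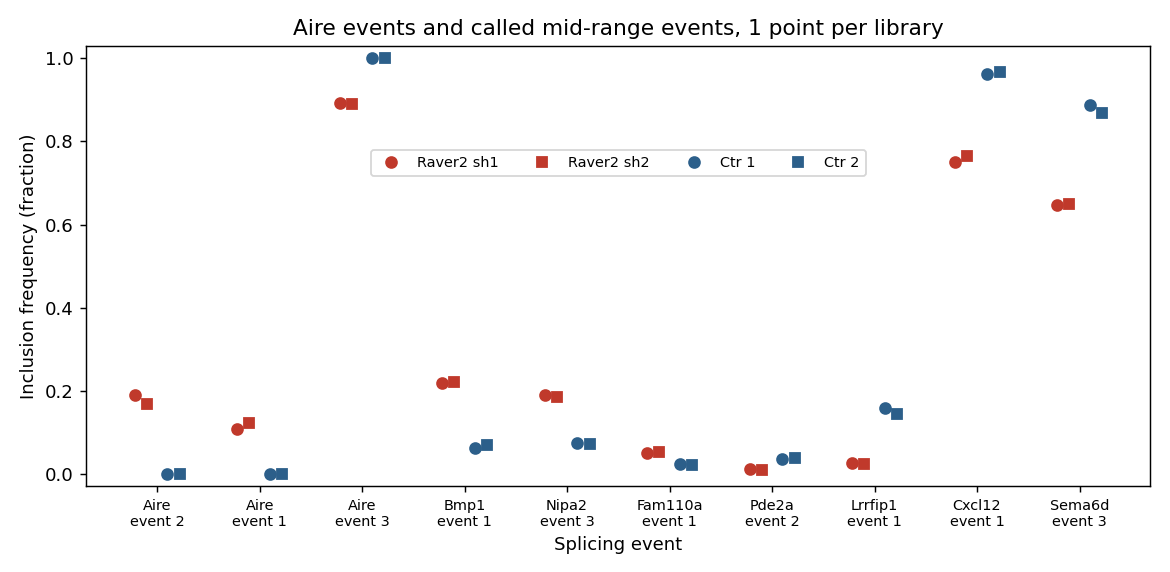
Inclusion frequency (a fraction, vertical axis) in each library for the 3 Aire events that passed and the 7 distinct mid-range events that passed, with Raver2 hairpins in red and Ctr libraries in blue; each point is 1 library. The points of a group lie close together and the groups do not overlap in any of these events, a pattern that selection by the test favours.

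Genes of cell adhesion, junctions and matrix contributed 11 of the 92 events, from 8 of their 53 genes. Of the list's 101 events 4 rose and 7 fell, which is 10.9% against 1.93% of all events. This list and the others used here were chosen with earlier results of these data known, so such shares are descriptions only. Counting identical or complementary pairs once leaves 8 of the list's 11 events and 86 of all 92. In the list 32 of 101 events had an unadjusted p under 0.05 (limma), against 635 of all 4767. The median absolute difference was 0.0762 in the list and 0.0428 over all events, while the median signed difference was -0.00647. Events of low inclusion in Ctr fell in the genes of the matrix proteins fibronectin and periostin (Fn1 and Postn) and of the collagen chaperone Serpinh1. Fn1 (chromosome 1, 71585520 to 71653200, minus strand) had its event 2 below 0.01 in both Raver2 libraries, against 0.135 and 0.120 in Ctr libraries (difference -0.127 ± 0.00692, SE; limma adjusted p = 0.0427). Event 3 of Serpinh1 (chromosome 7, 99345376 to 99353239, minus strand) was below 0.01 in both Raver2 libraries, against 0.0276 and 0.0263 in Ctr libraries (difference -0.0270 ± 0.000871, SE; limma adjusted p = 0.0354). In both genes the event was all but absent with either hairpin. Event 4 of Serpinh1 lay just outside the threshold, below 0.01 in both Raver2 libraries and 0.603 and 0.550 in Ctr libraries (limma adjusted p = 0.0542). Event 1 of Postn, a matrix protein that fibroblasts make and one of the fibroblast markers, was below 0.01 in both Raver2 libraries, against 0.0300 and 0.0278 in Ctr libraries (difference -0.0289 ± 0.00118, SE; limma adjusted p = 0.0354). Without a variance trend Fn1, Serpinh1 and Postn no longer passed (limma adjusted p = 0.0603, 0.137 and 0.130 in that order).

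Other members of the adhesion group switched completely. The events of Adam33, a membrane-bound metalloprotease, and of Dlg5, a scaffold of epithelial junctions, were below 0.01 in both Raver2 libraries and above 0.99 in both Ctr libraries (limma adjusted p = 0.0354 for each). Event 1 of Lin7a, a scaffold of polarised membranes, was above 0.99 in both Raver2 libraries, against 0.0440 and 0.0271 in Ctr libraries, and event 2 was its complement within 0.05. Events 1 and 2 of Pcdh9, a protocadherin, were complements in the same sense, with event 1 above 0.99 in both Raver2 libraries and below 0.01 in both Ctr libraries. Events were matched by rank alone, so a different order of the complementary events in the groups would give such values too. For Lin7a and Pcdh9 a switch and a changed order cannot be told apart here. Genes outside the list were not counted with it, and those that follow were picked after their values were seen. Vit, which encodes a matrix protein, Tgfb1i1, an adaptor of focal adhesions, and Pdpn, podoplanin, a membrane glycoprotein of stromal and epithelial cells, were below 0.01 in both Raver2 libraries and above 0.99 in both Ctr libraries. Abi3bp (chromosome 16, 56477878 to 56690135, plus strand), a matrix protein, rose instead, with 0.975 and above 0.99 in Raver2 libraries against 0.410 and 0.364 in Ctr libraries (difference 0.599 ± 0.0292, SE; limma adjusted p = 0.0373).

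Among developmental and lineage transcription factors, 1 event rose and 6 fell of 99, or 7.07% against 1.93% of all events. All were in 3 of the list's 56 genes. Sox17 (chromosome 1, 4490931 to 4497354, minus strand), a factor of endoderm and endothelium, accounted for 5 of them. Its event 1 was below 0.01 in both Raver2 libraries, against 0.759 and 0.770 in Ctr libraries (difference -0.764 ± 0.0440, SE; limma adjusted p = 0.0449). Event 5 gave below 0.01 in both Raver2 libraries, against 0.817 and 0.833 in Ctr libraries (difference -0.825; limma adjusted p = 0.0443). At event 6 the Raver2 libraries were above 0.99, against 0.790 and 0.765 in Ctr libraries (difference 0.220; limma adjusted p = 0.0427). At these positions both Raver2 libraries lay at an end of the scale, while both Ctr libraries held a mixture. Events 2 and 4 fell too, to below 0.01 in both Raver2 libraries, against 0.170 and 0.155 in Ctr libraries at event 2 and 0.0506 and 0.0540 in Ctr libraries at event 4. Event 3 did not pass, the hairpins being far apart at 0.448 in sh1 and above 0.99 in sh2, against 0.191 and 0.176 in Ctr libraries. Events 4 and 6 did not pass on the arcsine scale (limma adjusted p = 0.0870 and 0.0528) or without a variance trend (limma adjusted p = 0.0814 and 0.0529).

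The other lineage factors that passed were Ebf3 and Prrx1. Ebf3 (chromosome 7, 137193673 to 137314445, minus strand), a helix-loop-helix factor of neural and mesenchymal lineages, was below 0.01 in both Raver2 libraries, against 0.127 and 0.130 in Ctr libraries (difference -0.127 ± 0.00206, SE; limma adjusted p = 0.0354). Prrx1 (chromosome 1, 163245119 to 163313710, minus strand), a homeobox factor of mesenchyme, was below 0.01 in both Raver2 libraries, against 0.325 and 0.345 in Ctr libraries (difference -0.326 ± 0.0127, SE; limma adjusted p = 0.0354). In both, the minor isoform of the Ctr libraries was nearly lost with either hairpin. Rarb, a retinoic acid receptor outside the list, gained a minor isoform, with 0.111 and 0.104 in Raver2 libraries against below 0.01 in both Ctr libraries (difference 0.107 ± 0.00353, SE; limma adjusted p = 0.0354).

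Immune genes supplied 4 events that passed among 147, 3 higher and 1 lower, or 2.72%, a share close to the 1.93% of all events. The lower one was Cxcl12, described above. Event 3 of Il15ra, the receptor chain that presents interleukin-15, was above 0.99 in both Raver2 libraries and below 0.01 in both Ctr libraries. Fcrl5, an Fc receptor-like protein of B cells, had 0.988 and 0.985 in Raver2 libraries against below 0.01 in both Ctr libraries. Both were near-complete gains of inclusion (limma adjusted p = 0.0354 for each). Cd247, which encodes the zeta signalling chain of T cell receptors and is a leukocyte marker, had at event 3 0.0552 and 0.0610 in Raver2 libraries against below 0.01 in both Ctr libraries (difference 0.0581 ± 0.00268, SE; limma adjusted p = 0.0366), a call that was lost without a variance trend (limma adjusted p = 0.0814). Elsewhere, Cd300lg, a mucin-like receptor of endothelium, lost event 2 to below 0.01 in both Raver2 libraries, against 0.0896 and 0.0968 in Ctr libraries. Its event 4 was above 0.99 in both Raver2 libraries, against 0.644 and 0.604 in Ctr libraries (limma adjusted p = 0.0397). Fut7, the fucosyltransferase of selectin ligands, lost event 2 (0.0680 and 0.0718 in Ctr) and event 4 (0.0955 and 0.0972 in Ctr), both of which were below 0.01 in both Raver2 libraries.

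Small GTPases and their regulators had 4 events that rose and 0 that fell among 93, which is 4.30% against 1.93% of all events. An unadjusted p under 0.05 (limma) was found at 15 of the 93 and at 635 of all 4767 events. Iqsec3, an exchange factor for Arf GTPases, and Rhpn1 were above 0.99 in both Raver2 libraries and below 0.01 in both Ctr libraries. Pak3, a kinase activated by Rac and Cdc42, gained event 3, with 0.142 and 0.138 in Raver2 libraries against below 0.01 in both Ctr libraries (difference 0.140 ± 0.00243, SE; limma adjusted p = 0.0354). Its event 4 was above 0.99 in both Raver2 libraries, against 0.105 and below 0.01 in Ctr libraries (limma adjusted p = 0.0498, the largest that passed). The actin list had 2 of 102 events, 1 in each direction (1.96%). Event 5 of Pdlim5, an actin-associated scaffold, was below 0.01 in both Raver2 libraries and above 0.99 in both Ctr libraries.

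Synaptic and neural genes had 3 events that fell and 0 that rose among 50 (6%, against 1.93% of all events). Of the 50, 10 had an unadjusted p under 0.05 (limma), against 635 of all 4767. Besides Sema6d these were Slit2, a guidance cue, and Lrrc4c, an adhesion protein of synapses. Event 3 of Slit2 had 0.0282 and 0.0263 in Raver2 libraries, against above 0.99 and 0.959 in Ctr libraries (difference -0.952 ± 0.0461, SE; limma adjusted p = 0.0373). Event 2 of Lrrc4c was below 0.01 in both Raver2 libraries and above 0.99 in both Ctr libraries. In the tissue-restricted self-antigen list, 1 event rose and 1 fell of 50 (4%, against 1.93% of all events). Kng2, a kininogen gene expressed in liver, was above 0.99 in both Raver2 libraries and below 0.01 in both Ctr libraries, and Gucy2c, the guanylate cyclase receptor of intestine, showed the opposite values (limma adjusted p = 0.0354 for each). Sprr3, a cornified envelope protein outside that list, was below 0.01 in both Raver2 libraries, against 0.624 and 0.644 in Ctr libraries (difference -0.634; limma adjusted p = 0.0443).

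Apoptosis and DNA repair genes had 1 event that rose and 2 that fell among 53 (5.66%, against 1.93% of all events). Counting complementary pairs once leaves 2 of these 3 events. Event 1 of Rad52, a recombination mediator, had 0.959 and 0.956 in Raver2 libraries against above 0.99 in both Ctr libraries, and event 2 was its complement, with 0.0412 and 0.0437 in Raver2 libraries against below 0.01 in both Ctr libraries. The minor form of Rad52 was at 0.0412 or more with both hairpins and below 0.01 in both controls (difference at event 2, 0.0425 ± 0.00132, SE; limma adjusted p = 0.0354). Event 2 of Cflar, which encodes the caspase inhibitor c-FLIP, had 0.824 and 0.844 in Raver2 libraries against above 0.99 in both Ctr libraries (difference -0.164 ± 0.00966, SE; limma adjusted p = 0.0468). Cflar did not pass on the arcsine scale (limma adjusted p = 0.0528) or without a variance trend, where both Rad52 events were lost too (limma adjusted p = 0.0603 for Cflar and 0.0891 for Rad52). Ubiquitin ligases and deubiquitinases had 3 events that fell and 0 that rose among 128 (2.34%). Of the 128, 14 had an unadjusted p under 0.05 (limma), against 635 of all 4767. Event 1 of Rnf146 (chromosome 10, 29344176 to 29362442, minus strand), a ligase that recognises poly-ADP-ribose, was below 0.01 in both Raver2 libraries, against 0.641 and 0.616 in Ctr libraries (difference -0.626 ± 0.0360, SE; limma adjusted p = 0.0449). Event 3 of Rnf146 fell in the same way, and Klhl26 had 0.920 and 0.916 in Raver2 libraries against above 0.99 in both Ctr libraries.

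Solute carriers, channels and transmitter receptors had 3 events that rose and 1 that fell among 202 (1.98%), a share near that of all events. Event 5 of Slc10a7, event 2 of Slc10a3-ubl4 and event 7 of the potassium channel gene Kcnma1 were above 0.99 in both Raver2 libraries and at or below 0.0207 in the Ctr libraries, while Atp6v1c2, a proton pump subunit, showed the reverse. Mitochondrial and metabolic enzymes had 2 events that fell of 75 (2.67%), in Pdp1, which activates pyruvate dehydrogenase, and Alg11, a mannosyltransferase of N-glycan assembly. Alg11 had below 0.01 and 0.0114 in Raver2 libraries, against 0.919 and above 0.99 in Ctr libraries (difference -0.952; limma adjusted p = 0.0473). Kinases and phosphatases had 2 of 131 (1.53%), Pdp1 again and the sphingosine kinase gene Sphk1, which was below 0.01 in both Raver2 libraries and above 0.99 in both Ctr libraries. In the Golgi and endocytosis list 1 of 138 passed (0.725%), event 2 of Fnbp1, which curves membranes at sites of endocytosis, with below 0.01 in both Raver2 libraries against 0.453 and 0.484 in Ctr libraries (limma adjusted p = 0.0373). Among 208 events of unnamed and predicted genes 5 rose and 2 fell (3.37%, against 1.93% of all events). Counting complementary pairs once leaves 6 of these 7 events.

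**Figure D3:**
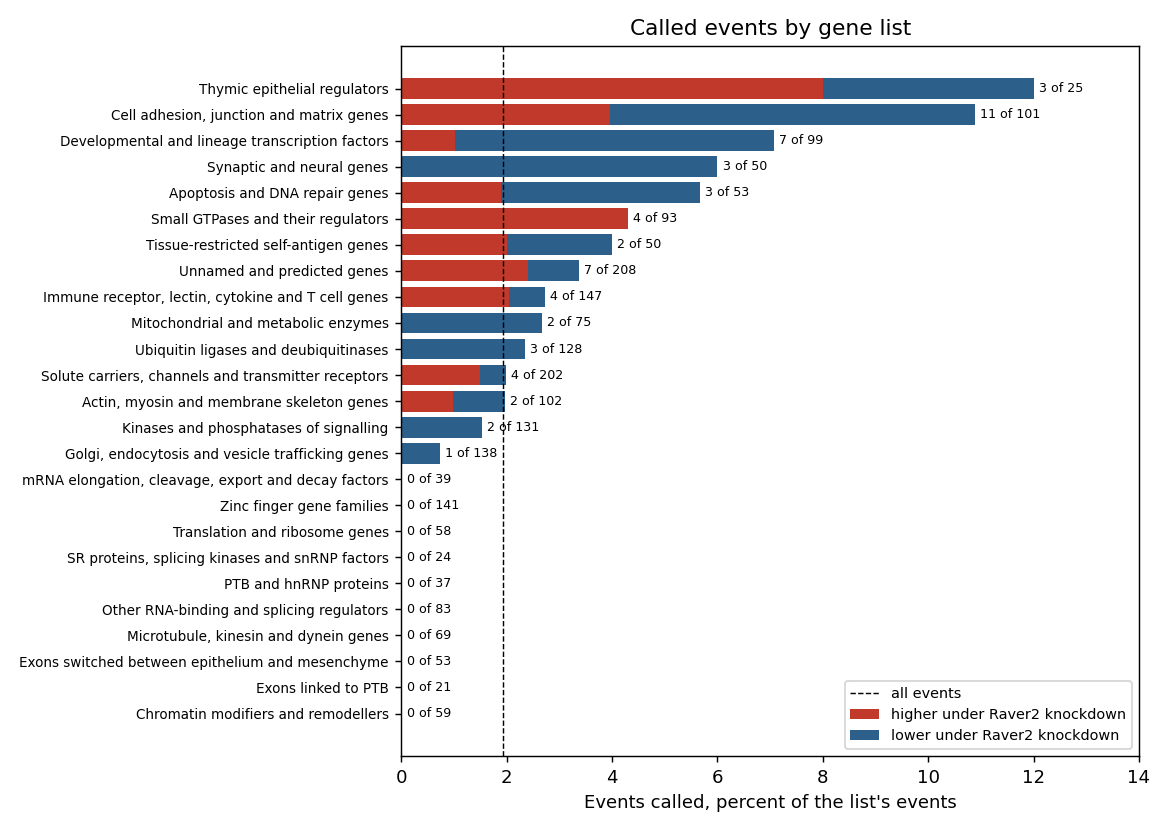
Percent of events that passed (limma, adjusted p under 0.05) in each gene list, with the share of all 4767 events marked at 1.93%. Thymic epithelial regulators (12%, all from Aire) and cell adhesion, junction and matrix genes (10.9%) have the longest bars, and 10 of the 25 lists are at 0. The lists were chosen with earlier results of these data known, and identical or complementary events are counted separately.

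Of the 76 genes with an event that passed, 44 were in a list, and several of the others are given here. Alas2, the first enzyme of heme synthesis in red cells, was above 0.99 in both Raver2 libraries, against 0.870 and 0.869 in Ctr libraries (difference 0.130 ± 0.00313, SE; limma adjusted p = 0.0354). Event 4 of Sybu, which links vesicles to kinesin, had 0.0433 and 0.0436 in Raver2 libraries against below 0.01 in both Ctr libraries (difference 0.0434 ± 0.000802, SE; limma adjusted p = 0.0354). Fam220a was below 0.01 in both Raver2 libraries against 0.184 and 0.193 in Ctr libraries, as was event 4 of Tmem53 against 0.155 and 0.144 in Ctr libraries. In all of these the libraries of a group differed by less than 0.05. The test selects for such closeness, and the hairpins differed by less than 0.05 at 91 of the 92 events that passed. Dlk1 (chromosome 12, 109452823 to 109463336, plus strand), an imprinted membrane protein related to Notch ligands, was above 0.99 in both Raver2 libraries and below 0.01 in both Ctr libraries. Emcn (chromosome 3, 137341067 to 137432185, plus strand), an endothelial sialomucin, was below 0.01 in both Raver2 libraries, against 0.933 and 0.936 in Ctr libraries (difference -0.934 ± 0.0453, SE; limma adjusted p = 0.0373). Partial losses were seen in Pex5l, with 0.184 and 0.210 in Raver2 libraries against above 0.99 in both Ctr libraries, in Pacsin1, a membrane-bending adaptor, with 0.392 and 0.428 in Raver2 libraries against above 0.99 and 0.953 in Ctr libraries, and in AB041803, with 0.433 and 0.471 in Raver2 libraries against above 0.99 in both Ctr libraries. Partial inclusion in Ctr became complete in Samd4, an RNA-binding regulator of translation, with above 0.99 in both Raver2 libraries against 0.483 and 0.425 in Ctr libraries, and at event 2 of Tspan8, a tetraspanin, with above 0.99 in both Raver2 libraries against 0.358 and 0.422 in Ctr libraries.

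The events next above the threshold were of the same kind. Event 7 of Smox, spermine oxidase, had 0.842 and 0.846 in Raver2 libraries against 0.581 and 0.588 in Ctr libraries (difference 0.260 ± 0.0161, SE; limma adjusted p = 0.0504). Kcnk13, a potassium channel gene, had 0.712 and 0.717 in Raver2 libraries against 0.0310 and 0.0251 in Ctr libraries (difference 0.686 ± 0.0427, SE; limma adjusted p = 0.0506). Neither showed overlap between the groups, which held at 44.3% of all 4767 events and is favoured by choosing low p-values. Serpinh1 event 4, given above, was the third.

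No event of a splicing factor passed. The share over all 4767 events was 1.93%, at which lists of this size would hold few or none. The zeros below are therefore near the background. Over all events 635 had an unadjusted p under 0.05 (limma). Of the 37 PTB and hnRNP events 34 were mid-range, as were 20 of the 24 in the SR protein list. Among all 2263 mid-range events 8 passed. PTB and hnRNP proteins had 0 of 37 events (limma; 4 at an unadjusted p under 0.05), SR proteins, splicing kinases and snRNP factors 0 of 24 (4 unadjusted), and other RNA-binding and splicing regulators 0 of 83 (5 unadjusted). Ptbp1 (chromosome 10, 79854427 to 79864771, plus strand) had 0.238 and 0.257 in Raver2 libraries at event 1, against 0.307 and 0.303 in Ctr libraries (difference -0.0573 ± 0.0280, SE; limma adjusted p = 0.602). Event 2 of Ptbp1 had 0.880 and 0.860 in Raver2 libraries against 0.956 and 0.895 in Ctr libraries (difference -0.0557 ± 0.0279, SE; limma adjusted p = 0.613). Both hairpins were below both controls at each of these events, a pattern that 23.5% of all 4767 events showed, and 20.8% showed the opposite one. Event 2 of Hnrnpa2b1, a relative that also represses exons, had 0.709 and 0.711 in Raver2 libraries against 0.789 and 0.791 in Ctr libraries (difference -0.0795 ± 0.0124, SE; limma adjusted p = 0.174). Event 2 of Tardbp, an RNA-binding repressor of cryptic exons, had 0.530 and 0.390 in Raver2 libraries against 0.172 and 0.185 in Ctr libraries, and the difference of 0.281 ± 0.0701 (SE) did not pass (limma adjusted p = 0.315).

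Among activators, event 1 of Srsf1 (chromosome 11, 88047373 to 88053755, plus strand), an SR protein that promotes exon inclusion, had 0.364 and 0.404 in Raver2 libraries against 0.135 and 0.103 in Ctr libraries (difference 0.265 ± 0.0311, SE; limma adjusted p = 0.123). Event 2 of Luc7l, a U1 snRNP factor, had 0.531 and 0.589 in Raver2 libraries against 0.243 and 0.354 in Ctr libraries (limma adjusted p = 0.348). Event 2 of Clk1, a kinase of SR proteins, had 0.124 and 0.139 in Raver2 libraries against 0.0532 and 0.0799 in Ctr libraries (limma adjusted p = 0.259). Both hairpins were higher than both controls in all of these, as at 20.8% of all 4767 events, and none passed. They were named for low p-values within their list, which favours such a pattern. The Setd2 libraries had similar fractions, with 0.376 and 0.405 for Srsf1, 0.554 and 0.563 for Luc7l and 0.124 and 0.139 for Clk1. Event 1 of Mbnl2, a muscleblind regulator, came closer, with 0.211 and 0.223 in Raver2 libraries against 0.0739 and 0.0521 in Ctr libraries (difference 0.154 ± 0.0122, SE; limma adjusted p = 0.0713). Event 1 of Nxf1, the mRNA export receptor, had 0.324 and 0.331 in Raver2 libraries against 0.142 and 0.162 in Ctr libraries (difference 0.175 ± 0.0217, SE; limma adjusted p = 0.131).

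Genes with exons linked to PTB in other work had 0 of 21 events that passed (limma; 1 at an unadjusted p under 0.05), and 5 lay above and 6 below both Ctr libraries with both hairpins. Genes with exons switched between epithelium and mesenchyme had 0 of 53 (11 unadjusted), with 16 above and 15 below both Ctr libraries. Over all 4767 events 1.93% passed, 635 had an unadjusted p under 0.05 (limma), and 20.8% lay above and 23.5% below both Ctr libraries. The groups were apart in either direction at 52.4% of the PTB-linked and 58.5% of the epithelial and mesenchymal list, against 44.3% of all events. Which exon an event concerns is not known here, so these lists gather genes and not the exons themselves. The most negative difference of the epithelial and mesenchymal list was in Golim4, a Golgi membrane protein, with 0.128 and 0.0540 in Raver2 libraries against 0.724 and 0.681 in Ctr libraries (difference -0.612 ± 0.0581, SE; limma adjusted p = 0.0903). The lists of chromatin modifiers (59 events, 5 unadjusted), microtubule genes (69, 9), translation and ribosome genes (58, 6), mRNA elongation and decay factors (39, 10) and zinc finger families (141, 6) also had 0 events that passed.

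Averaged over all 4767 events, inclusion was 0.448 in each Raver2 library, against 0.456 and 0.460 in the Ctr libraries. The difference in means was -0.0100 (0.448 ± 0.000258 in Raver2 and 0.458 ± 0.00342 in Ctr; SD, n = 2 each), with an exact permutation p of 0.333, the smallest that the 6 assignments of 4 libraries allow. Among mid-range events both groups averaged 0.493 (difference -6.35e-05, exact permutation p = 1).

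By starting inclusion, the events that passed were concentrated at the ends. Of 1323 events skipped in Ctr (mean below 0.1), 29 rose and 7 fell (2.72%), and of 967 events included in Ctr (above 0.9), 0 rose and 34 fell (3.52%). The classes between gave fewer: 7 fell and 0 rose of 817 low events (0.1 to 0.35, 0.857%), 5 rose and 4 fell of 924 balanced events (0.35 to 0.65, 0.974%), and 2 rose and 4 fell of 736 high events (0.65 to 0.9, 0.815%). A skipped event can move little but upward and an included one little but downward. All events showed the same tilt, since both hairpins lay above both Ctr libraries in 31.5% of skipped and 9.51% of included events, and below both in 15.2% of skipped and 32.9% of included events. The mean change was 0.0633 in skipped, 0.0281 in low, -0.0220 in balanced, -0.0619 in high and -0.0915 in included events. The Ctr mean both sets the class and enters the change, so no test was made. With the class set by Ctr library 1 and the change taken against Ctr library 2, the means were -0.00106, 0.000855, -0.00242, -0.0159 and -0.0400 in the same order of classes. With the Ctr libraries exchanged they were 0.0123, 0.0119, -0.0191, -0.0398 and -0.0190. Most of the apparent gain of skipped events was absent when the library that set the class was not in the change.

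The hairpins were about as far from each other as the controls were. Raver2 sh1 and sh2 differed by more than 0.1 at 23.0% of events and by more than 0.9 at 179, and the Ctr libraries by more than 0.1 at 28.0% and by more than 0.9 at 181. Complete disagreement between libraries of a group was therefore as frequent in Ctr as under knockdown. In balanced events, 35.8% differed by more than 0.1 between hairpins and 58.2% between Ctr libraries, a class which by its definition gathers events whose Ctr libraries take opposite ends. In skipped events the shares were 14.2% between hairpins and 5.82% between Ctr libraries, and in included events 17.4% and 8.48%. The events that passed were far tighter by construction of the test, with a median gap of 0.000490 between hairpins and 0.00231 between Ctr libraries. Both hairpins lay more than 0.9 from both Ctr libraries at 14 events that were higher and 26 that were lower, and more than 0.5 from both at 40 higher and 82 lower events.

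**Figure D4:**
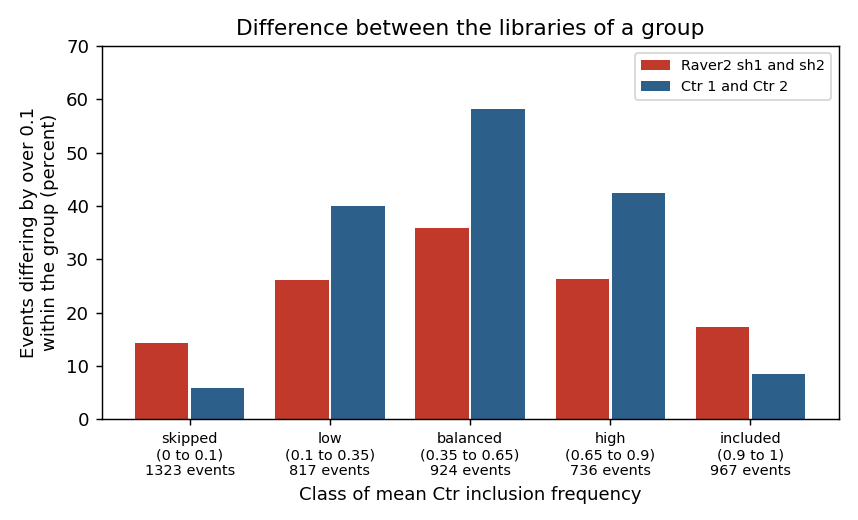
Percent of events at which the libraries of a group differed by more than 0.1 in inclusion frequency, for the Raver2 hairpins (red) and the Ctr libraries (blue), by class of mean Ctr inclusion; bars are single percentages over the number of events printed under each class. Ctr bars are higher in the low, balanced and high classes and Raver2 bars in the skipped and included classes.

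Agreement between hairpins was also counted with each hairpin set against its own Ctr library, so that they shared none. With Ctr library 1 taken from sh1 and Ctr library 2 from sh2, the events with both changes over 0.1 in size were 572 in the same direction and 304 in opposite directions (65.3% the same). Exchanging the Ctr libraries gave 574 and 316 (64.5%). Where both Ctr libraries lay within 0.1 of the same end of the scale, a change over 0.1 could go only 1 way. Both hairpins then had to agree, so part of these shares was fixed in advance. By the same counts under each pairing, mid-range events had 237 in the same and 94 in opposite directions (71.6%), and 250 and 106 (70.2%). Balanced events had 152 in the same and 146 in opposite directions (51.0%), and 160 and 136 (54.1%). That class gathers events whose Ctr libraries take opposite ends. Set against different Ctr libraries, even equal hairpins then give opposite directions, so counts in this class do not measure how far the hairpins agree. With both changes over 0.2 in size, balanced events were more often opposite, 69 in the same and 86 in opposite directions (44.5%), and 70 and 104 (40.2%). These shares are descriptions over events, which are not independent replicates.

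The Setd2 libraries give a view of the same events under another knockdown, over the 4658 events matched in all 6 libraries. The comparisons of Raver2 with Ctr and of Setd2 with Ctr share both Ctr libraries, so values are given side by side only. Setd2 knockdown had 104 events against Ctr by the fit of 6 libraries (2.23%). Of the 92 events, 80 were matched in all 6 libraries. Of these 80, 26 also passed for Setd2 against Ctr in the same direction, with the Ctr libraries shared. Raver2 and Setd2 knockdown differed at 34 of 4658 events (0.73%; limma, adjusted p under 0.05), and 16 of these were among the 80. Aire was not among them: event 1 had 0.0846 and 0.0677 in Setd2 libraries, event 2 had 0.118 and 0.110 and event 3 had 0.925 and 0.933, and the limma adjusted p for Raver2 minus Setd2 was 0.482, 0.202 and 0.149 in that order. These Aire events also passed for Setd2 against the shared Ctr libraries, in the same direction (limma adjusted p = 0.0498, 0.0254 and 0.0190 in that order). Ebf3, Prrx1, Fn1 event 2, Serpinh1 event 3, Dlg5 and Lrrfip1 had fractions at or below 0.0280 in both Setd2 libraries. Each of them likewise passed for Setd2 against Ctr in the same direction (limma, adjusted p under 0.05). Some events that did not pass were also nearer to the Raver2 than to the Ctr values. In Setd2 libraries Nxf1 had 0.315 and 0.325, Hnrnpa2b1 event 2 had 0.718 and 0.708 and Golim4 had 0.0420 and 0.0269. This did not hold with both Setd2 hairpins for Mbnl2 (0.237 and 0.0822) or Tardbp event 2 (below 0.01 and 0.141).

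At other events the Setd2 libraries lay nearer to Ctr than to Raver2 knockdown. Event 5 of Pdlim5, Tlcd1, Pdp1 and Alg11 were above 0.99 in both Setd2 libraries, where the Raver2 libraries were at or below 0.0114. Rhpn1 was below 0.01 in both Setd2 libraries, where the Raver2 libraries were above 0.99. Event 1 of Rnf146 had 0.616 and 0.651 in Setd2 libraries, and the difference of Raver2 minus Setd2 was -0.631 ± 0.0487 (SE; limma adjusted p = 0.0456). Event 1 of Bmp1 had 0.109 and 0.0994 in Setd2 libraries, so that Raver2 knockdown was higher than Setd2 knockdown by 0.116 ± 0.00772 (SE; limma adjusted p = 0.0315). Cxcl12 event 1 had above 0.99 and 0.551 in Setd2 libraries, and with the spread estimated over all 6 libraries its difference of Raver2 from Ctr did not pass (limma adjusted p = 0.724). Cxcl12 was not alone in this, as that fit kept the call at 43 of the 80 events matched in it. Elsewhere too the Setd2 hairpins disagreed with each other. Of the 41 events with a change over 0.9, 34 had Setd2 values, and at 10 of these (29.4%) the Setd2 hairpins differed by more than 0.9, against 3.78% of all 4658 events. Pdpn was above 0.99 in Setd2 sh1 and below 0.01 in Setd2 sh2, and Il15ra event 3, Adam33, Iqsec3 and Pcdh9 event 1 were split between the ends in the same manner.

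**Figure D5:**
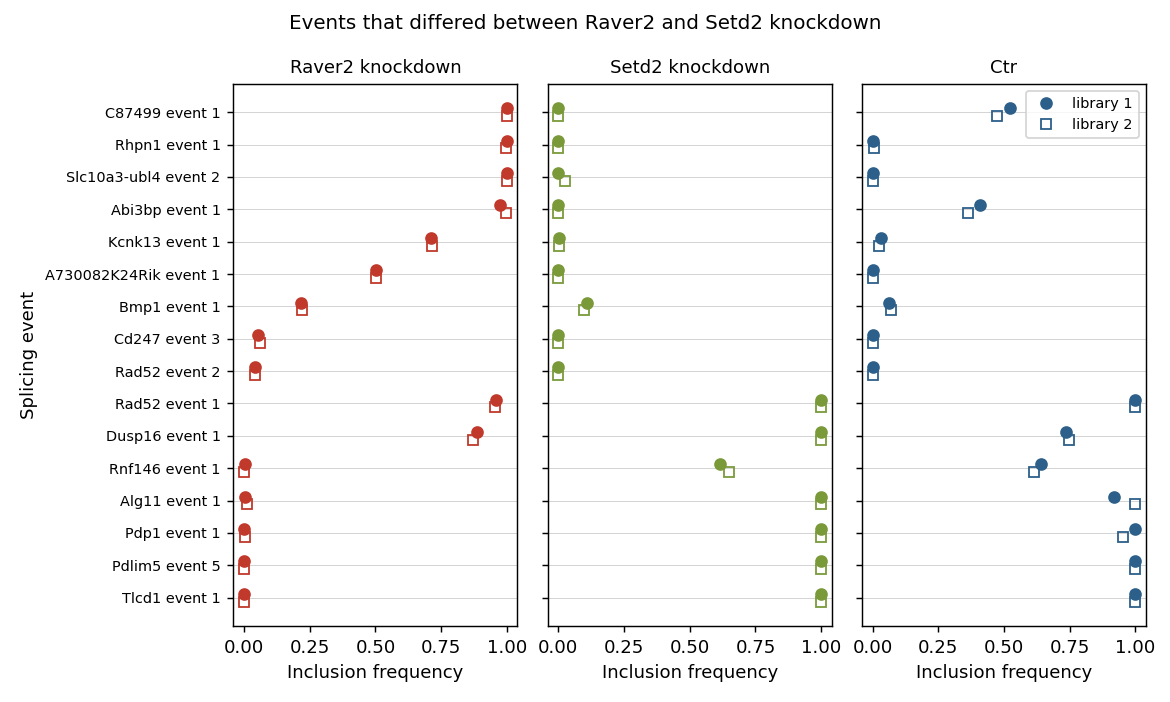
Inclusion frequency (a fraction, horizontal axes) of the named events at which Raver2 and Setd2 knockdown differed by test, in Raver2 (red), Setd2 (green) and Ctr (blue) libraries; filled circles are library 1 (sh1 in the knockdowns) and open squares library 2. Setd2 and Ctr points lie close together in most rows, while at C87499, Abi3bp and, nearer to Setd2, Kcnk13 the Ctr points lie between the points of the knockdowns, and at Dusp16 and Bmp1 below both.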

How the data were processed

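RNA of 6 mTEC libraries was analysed, 2 each for Raver2 knockdown, Setd2 knockdown and Ctr. Each value deposited by the authors was an inclusion fraction from 0 to 1. The submitters' processing notes name the genome build mm10 and the tools Cufflinks, TopHat2 and Trimmomatic 0.39. Their settings, the event caller and any coverage filter are not stated in the labels. With fractions alone, the depth behind a value is unknown, so counting intervals are left out.

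Events were matched by gene symbol and order within the gene. In genes with several events, fractions at the same position correlated at 0.735 to 0.795 between libraries, against 0.0880 to 0.137 after a shift by 1 place. These correlations span many genes and do not show that the order held in every gene. Of the 4767 events, 167 repeated an earlier event of their gene. GENCODE M21 coordinates locate the gene, not the event.

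limma 3.58.1 in R 4.3.3 was fitted to the fractions of the 4 libraries with a trend of variance with mean, two-sided, and Benjamini-Hochberg adjustment over 4767 events at 0.05. The method was tested on simulated data. Raver2 and Setd2 knockdown were compared in a fit of 6 libraries over 4658 events. Mean inclusion was compared by two-sided exact permutation. Every event that passed could be named. Up to 4 events per gene list, those of Ptbp1 and Aire, and the 3 events next above the threshold were named whether or not they passed, apart from a few that are not reported here. Genes and the 25 lists were chosen with earlier results of these data known, and 17 symbols that matched a list by their letters alone were removed. Alternatives were arcsine and logit scales, no variance trend, all 6 libraries, mid-range events alone, repeats removed, genes with 1 event, each library left out and a minimum difference of 0.1. Figures used Python 3.11.15 and matplotlib 3.10.9.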

Additional observations from a re-analysis of the deposited data

Results flagged for a closer look

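Events named above were drawn out where Raver2 and Setd2 knockdown differed by test in the fit of 6 libraries (limma, adjusted p under 0.05 over 4658 events). The differences below are Raver2 minus Setd2 means, and the comparison uses the Raver2 libraries that also entered the comparison with Ctr.

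Inclusion was higher under Raver2 than under Setd2 knockdown in C87499 (difference 1.0), Rhpn1 (0.998), event 2 of Slc10a3-ubl4 (0.987), Abi3bp (0.986), Kcnk13 (0.713), A730082K24Rik (0.504), events 1 and 2 of Bmp1 (0.116 each, a single measurement), event 3 of Cd247 (0.0581) and event 2 of Rad52 (0.0424). In C87499, Abi3bp, Kcnk13, Rhpn1 and A730082K24Rik both Setd2 libraries were below 0.01. C87499 had above 0.99 in both Raver2 libraries, below 0.01 in both Setd2 libraries, and 0.523 and 0.474 in Ctr libraries, so the knockdowns lay on opposite sides of Ctr. Abi3bp lay in the same order, with 0.410 and 0.364 in Ctr libraries.

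It was lower under Raver2 than under Setd2 knockdown in Tlcd1 (-1.0), event 5 of Pdlim5 (-1.0), Pdp1 (-0.998), Alg11 (-0.993), event 1 of Rnf146 (-0.631), Dusp16 (-0.120) and event 1 of Rad52 (-0.0424). Dusp16, a phosphatase of MAP kinases, had 0.885 and 0.872 in Raver2 libraries, above 0.99 in both Setd2 libraries, and 0.735 and 0.748 in Ctr libraries, and its difference of Raver2 from Ctr did not pass (limma adjusted p = 0.0745).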

How the results depend on the processing

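The events named in the report kept their direction under every alternative that could be fitted, apart from 2 that passed under none: Aire event 5, whose difference came to 0 without Raver2 sh1, and Aire event 7, whose difference was about 0.5 in size, in either direction, when a library was left out. Besides those given in the report, calls ended on the arcsine or logit scale were those of 0610005C13Rik, Alg11, Abi3bp, Klhl26, Pacsin1, Pdp1, Pak3 event 4, Slit2 event 3 and Sptssb event 2, and without a variance trend those of Ncaph2 and Sybu. For the 92 events that passed, 551 of 854 alternatives kept the call and 303 lost it, and 78 events kept it in at least 0.5 of theirs. The total was 92 without a variance trend (76 of the same events), 93 with repeats removed (91 of the same) and 79 with a minimum difference of 0.1. The arcsine scale gave 138 events (58 higher, 80 lower) and the logit scale 143 (60 higher, 83 lower), with 78 and 80 of the 92 among them. The fit of 6 libraries gave 113, of which 43 were among the 92. Genes with 1 event gave 32 (9 higher, 23 lower) over 1710 events tested. Mid-range events alone gave 0 in either direction.

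Leaving out 1 library gave 0 to 402 events in all, 0 to 140 higher and 0 to 262 lower; the lone library of a group was then assumed to vary like the other group. The share of higher events was 39.1% with all 4 libraries and 77.4% without Raver2 sh1. The cause was not tested. Mean changes by starting class, with the class from Ctr library 1 and the change against Ctr library 2, were -0.00106 (skipped), 0.000855 (low), -0.0159 (high) and -0.0400 (included). With the Ctr libraries exchanged they were 0.0123, 0.0119, -0.0398 and -0.0190. By construction a class is then free of the library that enters the change.

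No paired analysis was possible because the groups compared share no replicate numbers: the Ctr labels carry none and the Raver2 labels name hairpins. The depth behind a fraction of 0 or 1 is unknown.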

Other observations

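Genes listed in only 1 of the groups entered no comparison. Events of 7 genes were listed in both Raver2 libraries and neither Ctr library: 6430710C18Rik, C430002N11Rik, Caly, Gmnc, Tbx10, Tex33 and Tsks. Events of 20 genes were listed in both Ctr libraries and neither Raver2 library, among them Acr, a sperm acrosome protease, Apoc3, an apolipoprotein of liver, Ghrl, the hormone precursor ghrelin, Crybb3, a lens crystallin, and the transcription factor gene Tead4. Why these genes were listed in 1 group alone was not tested.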
